A study of Homo sapiens with 6 samples.

Results

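The genes described here are 42 mitotic genes: CDK1 with its cyclins, the PLK, Aurora and NEK2 kinases, the spindle checkpoint, the anaphase machinery, kinetochore proteins, kinesins and factors of the spindle midzone. They were taken by gene symbol from the array annotation, and only probe sets that exceeded a signal of 100 (log2 of 100 on the scale of the values) on at least 1 of the 6 arrays were used. Of their 85 probe sets 62 passed this limit and were kept, and 40 of the 42 genes had at least 1, out of 16397 kept probe sets and 8878 genes in the whole series. PLK1 and INCENP had none. Total RNA came from KHOS and U-2OS, which are established human osteosarcoma lines, and each line was measured untransfected, with nonspecific siRNA at 40 nM and with siRNA against CDK11 at 40 nM. CDK11 is a cyclin-dependent kinase encoded by a pair of near-identical genes. RNA was collected 48 hours after transfection, and the RNA of 3 flasks was pooled for each array. There was thus 1 array per line and condition, and a difference within a line has no replicate. Untransfected cells received neither siRNA nor, as labelled, any transfection, so the part of the transfection itself and that of the nonspecific siRNA cannot be told apart.

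Mitotic genes are transcribed in a wave that peaks in G2 and mitosis and is low in G1. CDK1 bound to cyclin B drives entry into mitosis, the Aurora and Polo-like kinases build the spindle, and the kinetochore joins each centromere to spindle fibres. The spindle checkpoint holds CDC20, the activator of the anaphase-promoting complex, until every chromosome is attached. In bulk RNA such as this, fewer cells in G2 and mitosis and less of each transcript per cell cannot be told apart.

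The arrays were alike in overall signal. Between 24.8% and 25.9% of all probe sets lay above the limit, and the median of the kept probe sets was 8.71 to 8.72 in KHOS and 8.54 to 8.58 in U-2OS. The excess of 3' over 5' signal of GAPDH, a sign of RNA integrity, was 0.27 to 0.49 on the log2 scale, and that of ACTB was 3.38 to 3.87. With CDK11 siRNA the brightest CDK11 probe set was left at 20.6% of its level with nonspecific siRNA in KHOS and at 16% in U-2OS. Of 9 mesenchymal and osteoblast markers 7 were kept, with COL1A2 and ALPL below the limit on all 6 arrays. Of 7 epithelial markers EPCAM, KRT8 and KRT18 were kept, and none of 5 blood cell markers was.

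Relative to all genes, both siRNA arrays had lower mitotic signal than the untransfected array of their line, while the relation of the siRNAs to each other was opposite in the 2 lines. All differences here are of log2 signal, and each gene is represented by its probe set of highest mean level. With nonspecific siRNA against untransfected cells, the median difference of the 40 genes was -0.16 in KHOS and -0.37 in U-2OS. With CDK11 siRNA against untransfected cells it was -0.45 in KHOS, a value that became 0.0016 when each array was centred on the median of 25 housekeeping genes and -0.40 when it was centred on their mean, and -0.24 in U-2OS. CDK11 siRNA against nonspecific siRNA gave -0.24 in KHOS, which turned to 0.22 under the median centring and became -0.10 under the mean centring, and 0.092 in U-2OS. The median centring moved the median of all 8878 genes in KHOS to 0.46 and 0.45 in these comparisons, so the distance of the mitotic median from that of all genes, -0.24 and -0.45, was untouched by it. The housekeeping genes themselves had a median difference of -0.079 between the siRNAs in KHOS, while the level at their median went from 12.76 to 12.30. As deposited, the median of all genes was between -0.005 and 0.012 in the 6 comparisons within lines. The comparisons share arrays, since the nonspecific siRNA array enters a pair of them with opposite sign, so they are given side by side and not set against each other.

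**Figure D1:**
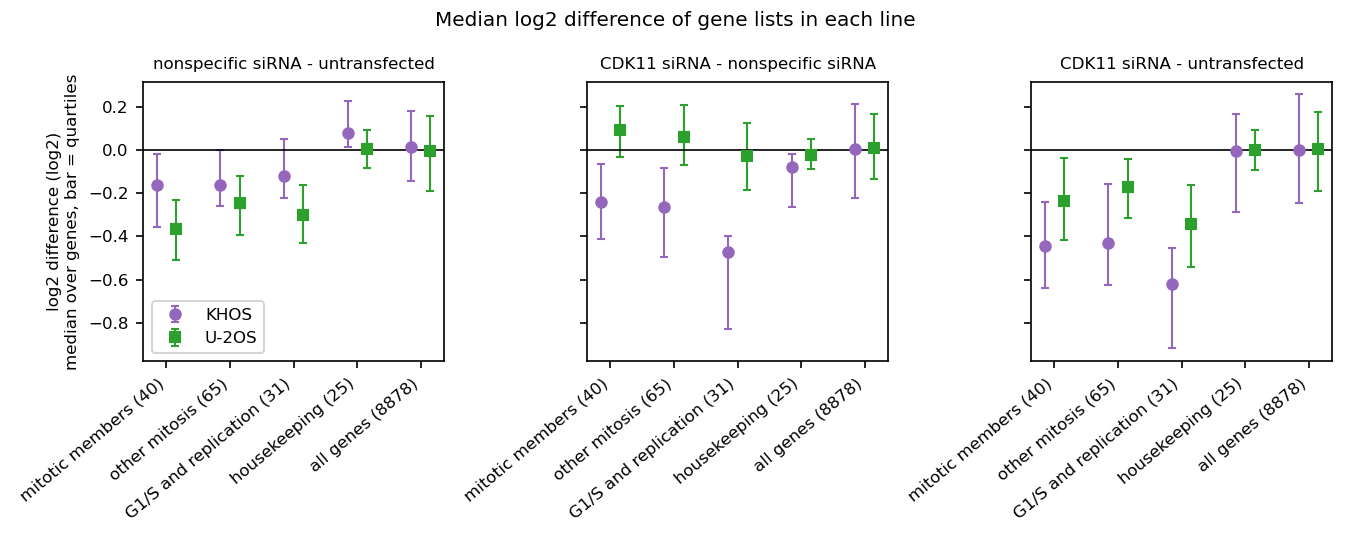
Median log2 difference of 5 sets of genes, with the number of genes in brackets, for KHOS (circles) and U-2OS (squares). Bars span the quartiles over genes and are not replicate errors. The 40 mitotic genes lie below 0 in both lines against untransfected cells. Between the siRNAs they lie on opposite sides of 0, with -0.24 in KHOS and 0.092 in U-2OS. With arrays centred on the housekeeping median the KHOS value is 0.22, where the median of all genes is 0.46.

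The counts of genes on each side of 0 followed the medians. In KHOS 31 of the 40 mitotic genes were lower with nonspecific siRNA than in untransfected cells, where 48% of all genes were. In U-2OS 38 of 40 were lower, against 50.9% of all genes, and 30 were lower in both lines, against 28%. With CDK11 siRNA against untransfected cells 38 were lower in KHOS (50.1% of all genes) and 36 in U-2OS (48.9%). In both lines 34 were lower (31.7%), and no mitotic gene was higher in both. Centring on the housekeeping median left 20 lower in KHOS, against 14% of all genes, and centring on the mean left 36, against 43.3%. Between the siRNAs 34 were lower with CDK11 siRNA in KHOS, where 49.6% of all genes were, but 12 in U-2OS, where 48.2% were. The 12 were lower in both lines, a pattern that 31% of all genes had. In KHOS 10 stayed lower after centring on the housekeeping median, against 11.4% of all genes, and 27 on the mean, against 32.4%.

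The untransfected array was the highest of the 3 for 31 of the 40 genes in KHOS, against 33.4% of all genes, and for 36 in U-2OS, against 35.8%. The lowest array differed by line. In KHOS it was the CDK11 siRNA array for 33 genes, against 38.1% of all genes, and in U-2OS the nonspecific siRNA array for 27, against 32.8%. In KHOS 26 genes were in descending order from untransfected through nonspecific siRNA to CDK11 siRNA, against 21.4% of all genes. In U-2OS 25 genes were highest untransfected, lowest with nonspecific siRNA and in between with CDK11 siRNA, against 17.8% of all genes. The orders in KHOS depended on the scaling. Centring on the housekeeping median left 19 genes there with the untransfected array highest (10.8% of all genes) and 10 with CDK11 siRNA lowest (8.38%). It left 9 in descending order (5.1%) and put nonspecific siRNA lowest for 24 (44.8%). Centring on the mean left 33 with untransfected highest (35.3%), 26 with CDK11 siRNA lowest (26.6%) and 23 in descending order (18.6%).

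**Figure D2:**
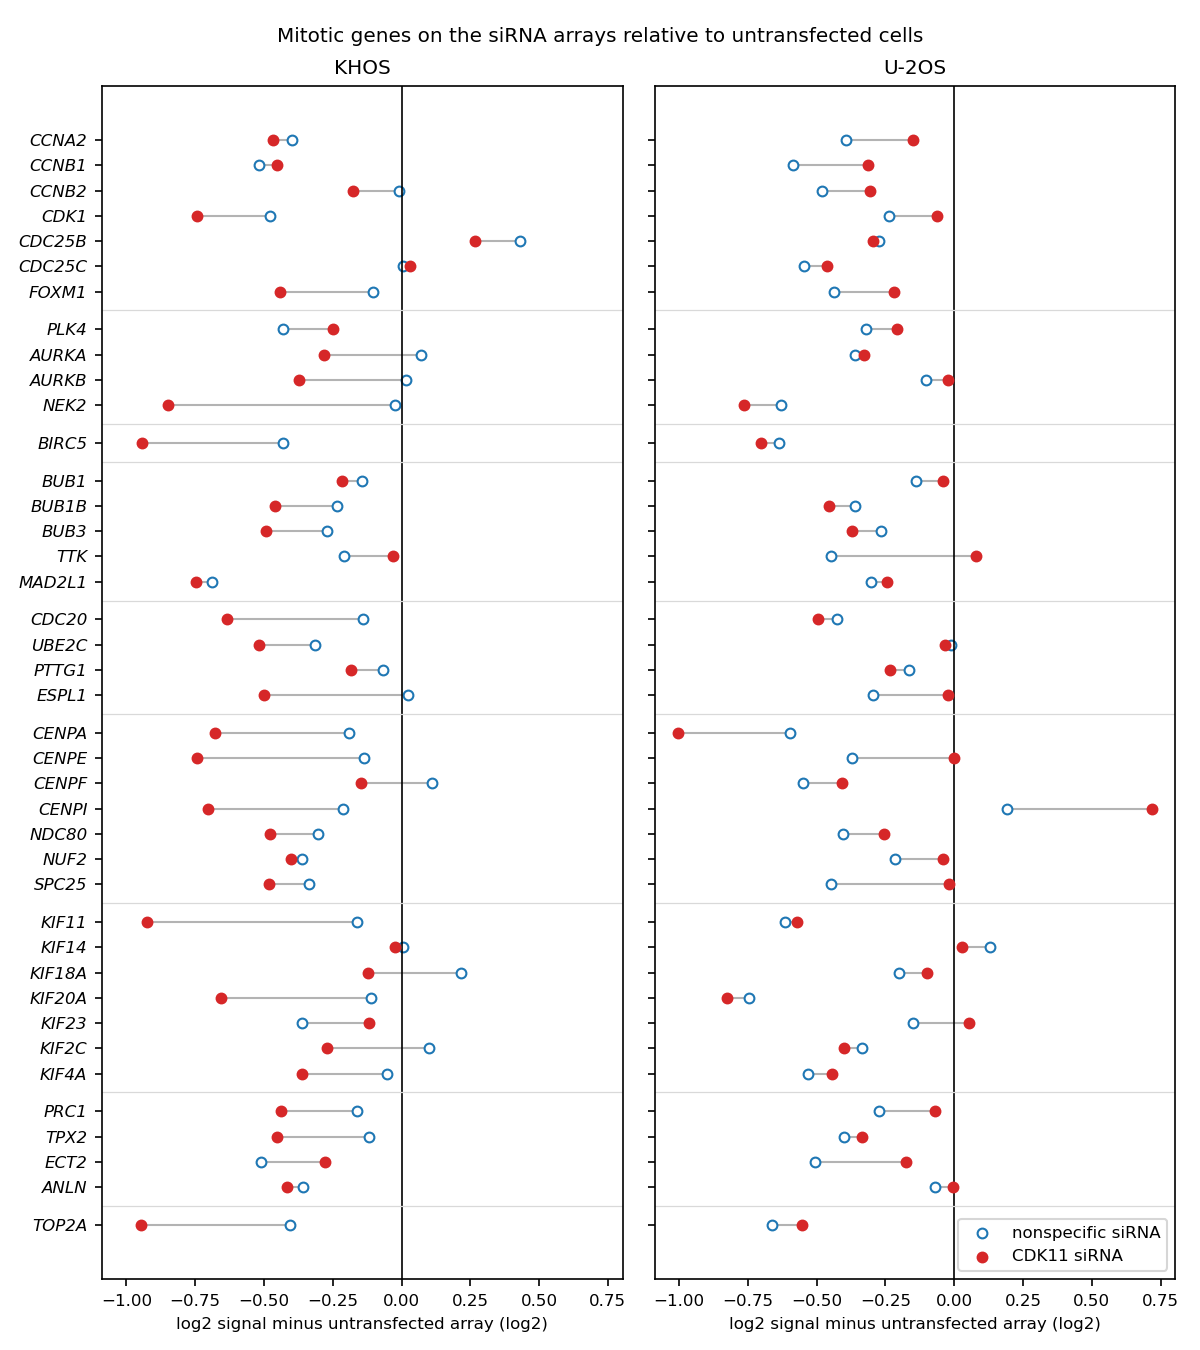
Log2 signal of each of the 40 mitotic genes with nonspecific siRNA (open circles) and CDK11 siRNA (filled circles) minus its signal in untransfected cells of the same line, 1 array each, with grey lines between groups of genes of different roles. In KHOS the filled circles lie left of the open ones for 34 genes, and in U-2OS for 12. With arrays centred on the housekeeping median they do so for 10 genes in KHOS, against 11.4% of all genes.

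The differences were small. A step of over 0.5 log2 units downward was seen for 3 mitotic genes in KHOS (5.07% of all genes) and 11 in U-2OS (7.72%) with nonspecific siRNA against untransfected cells. Between CDK11 and nonspecific siRNA there were 7 such genes in KHOS (9.93% of all genes) and 0 in U-2OS (5.19%). Against untransfected cells CDK11 siRNA gave 13 in KHOS (12.1%) and 6 in U-2OS (8.02%). The 11 genes in U-2OS were 27.5% of the 40, and the 7 between the siRNAs in KHOS were 17.5%. With arrays centred on the housekeeping median the 7 and the 13 in KHOS both became 0, where 2.5% and 3.1% of all genes kept such a step, and the 11 and the 6 in U-2OS became 29 (18.9% of all genes) and 15 (16.2%). Centring on the mean gave 2 and 11 in KHOS, 12 and 6 in U-2OS, and 6 in KHOS for nonspecific siRNA against untransfected cells in place of 3.

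Steps of over 0.5 upward were rarer still. There were 0 in either line with nonspecific siRNA against untransfected cells, where 6.18% of all genes in KHOS and 5.34% in U-2OS had one. Between the siRNAs there were 0 in KHOS (8.39% of all genes) and 2 in U-2OS (5.7%), which were TTK at 0.53 and CENPI at 0.52. CDK11 siRNA against untransfected cells gave 0 in KHOS (11.9%) and 1 in U-2OS (6.72%), again CENPI, at 0.72. Centring on the housekeeping median gave 5 between the siRNAs in KHOS (CCNB1, ECT2, KIF23, PLK4 and TTK), where 44% of all genes then had such a step, and 1, CDC25B, for CDK11 siRNA against untransfected cells (44.4%). Centring on the mean left both at 0, where 14.1% and 13.9% of all genes had such a step.

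With the lines as the only repeats, limma was fitted to all 8878 genes with cell line as a block. It called 0 of the 40 mitotic genes at an adjusted p of 0.05 in each of the 3 comparisons, and the share of all genes called was 0% in each as well. At an unadjusted p under 0.05 there were 9 mitotic genes for nonspecific siRNA against untransfected cells, all lower, against 8.46% of all genes. There was 1, also lower, between the siRNAs, against 13.6%, and there were 13 for CDK11 siRNA against untransfected cells, all lower, against 18.3%. When the variance prior of limma was allowed to follow the level of a gene, 5 mitotic genes passed in that last comparison, all lower, against 3.14% of all genes. They were BIRC5, BUB3, CENPA, TOP2A and CDC20. Over the alternative settings of limma their adjusted p ran from 0.0253 to 1, the highest without the cell line block. The fit has 2 residual degrees of freedom.

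Promoters of genes expressed in G2 and mitosis often carry a CHR element (cell cycle genes homology region), bound by the DREAM and MuvB complexes, and CCAAT boxes, bound by NF-Y. Windows from 150 bases before to 30 bases after the gene start were read from RefSeq promoters of GRCh38.p14, which held 35 of the 42 genes, PLK1 and INCENP among them. TTTGAA or TTCGAA on either strand stood in 20 of the 35 windows (57.1%), against 9.33% of 35116 promoters, and CCAAT on either strand in 23 (65.7%), against 25.4%. Both stood in 15 windows (42.9%), against 2.77%. TTTGAA was found in 19 windows (54.3%), against 8.67%, and TTCGAA, which is its own reverse complement, in 2 (5.71%), against 0.752%. AURKA, BIRC5, BUB3, FOXM1, TPX2, TTK and UBE2C had no entry. The windows below are of CCNB1, NEK2, MAD2L1, CDC20, CENPA and KIF11, 1 gene for each of 6 roles. Other windows held neither motif, AURKB and CENPE among them. A CHR match here is TTTGAA or TTCGAA only. Other forms of the element were not searched, so a window without a match, such as that of CCNB1, may still hold one. The 6 shown have paired CCAAT boxes without a CHR match in CCNB1 and NEK2, a CHR match between CCAAT boxes in CDC20, 1 of each in CENPA and KIF11, and a CHR match downstream of the start in MAD2L1. Capitals mark the matches, on either strand, and the sequences run 5' to 3' along the gene.
CCNB1, chr5:69167000-69167179, plus strand: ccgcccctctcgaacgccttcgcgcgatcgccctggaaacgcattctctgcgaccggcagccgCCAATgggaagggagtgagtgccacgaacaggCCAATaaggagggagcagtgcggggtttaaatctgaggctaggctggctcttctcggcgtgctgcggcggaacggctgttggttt
NEK2, chr1:211675592-211675771, minus strand: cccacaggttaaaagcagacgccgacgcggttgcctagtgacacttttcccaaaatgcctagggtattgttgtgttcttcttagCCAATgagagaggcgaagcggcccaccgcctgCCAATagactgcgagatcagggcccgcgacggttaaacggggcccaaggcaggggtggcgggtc
MAD2L1, chr4:120066819-120066998, minus strand: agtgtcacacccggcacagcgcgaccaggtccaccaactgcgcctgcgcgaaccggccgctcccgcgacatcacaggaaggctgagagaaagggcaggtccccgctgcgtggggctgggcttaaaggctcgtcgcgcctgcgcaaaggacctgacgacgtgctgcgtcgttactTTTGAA
CDC20, chr1:43358831-43359010, plus strand: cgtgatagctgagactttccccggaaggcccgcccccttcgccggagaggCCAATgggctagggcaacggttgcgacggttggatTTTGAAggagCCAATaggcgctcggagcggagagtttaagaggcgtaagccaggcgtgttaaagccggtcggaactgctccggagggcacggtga
CENPA, chr2:26785906-26786085, plus strand: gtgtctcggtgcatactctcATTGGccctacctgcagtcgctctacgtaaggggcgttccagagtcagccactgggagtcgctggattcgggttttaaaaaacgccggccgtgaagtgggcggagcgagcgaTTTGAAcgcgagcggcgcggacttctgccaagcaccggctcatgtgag
KIF11, chr10:92592980-92593159, plus strand: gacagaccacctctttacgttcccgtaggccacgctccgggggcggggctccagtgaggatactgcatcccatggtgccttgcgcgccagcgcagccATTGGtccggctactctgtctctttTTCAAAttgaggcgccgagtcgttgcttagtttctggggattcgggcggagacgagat
With the start counted as 1 and no 0, the CHR match began at -65 in CDC20, -18 in CENPA, -28 in KIF11 and 25 in MAD2L1. The CCAAT matches began at -87 and -55 in CCNB1 and at -66 and -34 in NEK2. A match is a match of letters and says nothing of binding in these cells.

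CDK1 and its cyclins, phosphatases and transcription factor make up 7 of the genes. From here on, levels are log2 signals in the sequence untransfected, nonspecific siRNA, CDK11 siRNA. CDK1, the kinase that drives entry into mitosis, was at 13.03, 12.55 and 12.29 in KHOS and at 13.04, 12.80 and 12.98 in U-2OS. In U-2OS its CDK11 siRNA array lay next to the untransfected one, and in KHOS it was the lowest of the 3. CCNB1, cyclin B1, the partner of CDK1, was at 12.87, 12.35 and 12.42 in KHOS and at 12.83, 12.25 and 12.52 in U-2OS. Both siRNA arrays lay below the untransfected array in both lines, and nonspecific siRNA was the lower of them. The other kept probe set of CCNB1 gave -0.20 between the siRNAs in KHOS, with CDK11 siRNA the lower. The limma estimate for CCNB1 with nonspecific siRNA against untransfected cells was -0.55 (SE 0.119, adjusted p 0.518), with the same direction in 2 of 2 lines.

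CCNA2, cyclin A2, followed CCNB1 in U-2OS with 11.35, 10.96 and 11.20, and in KHOS was at 11.04, 10.64 and 10.58. CCNB2, cyclin B2, was at 11.53, 11.52 and 11.35 in KHOS and at 11.59, 11.11 and 11.29 in U-2OS. FOXM1, a transcription factor of G2 and mitotic genes, was at 9.49, 9.39 and 9.05 in KHOS and at 10.56, 10.12 and 10.34 in U-2OS. All 3 were thus lowest with CDK11 siRNA in KHOS and lowest with nonspecific siRNA in U-2OS. The other kept probe set of CCNA2, however, gave 0.15 between the siRNAs in KHOS. The phosphatases that activate CDK1 had other orders. CDC25B was at 9.74, 10.17 and 10.003 in KHOS, higher on both siRNA arrays, and at 9.58, 9.30 and 9.28 in U-2OS, lower on both. CDC25C was at 8.28, 8.28 and 8.31 in KHOS and at 6.89, 6.35 and 6.43 in U-2OS.

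Of the Polo-like, Aurora and NEK2 kinases, NEK2, which acts in the separation of centrosomes, had the widest differences. It was at 10.85, 10.83 and 10.001 in KHOS and at 11.40, 10.77 and 10.63 in U-2OS. On this probe set, the nonspecific siRNA array in KHOS was next to the untransfected one and only CDK11 siRNA lay apart, by -0.83. In U-2OS the first step was already -0.63. The other kept probe set of NEK2 had steps of -0.26 and -0.63 in KHOS, and gave 0.23 between the siRNAs in U-2OS. NEK2 gave a limma estimate of -0.81 (SE 0.205, adjusted p 0.182) for CDK11 siRNA against untransfected cells and -0.48 (adjusted p 0.399) against nonspecific siRNA. AURKA, which acts at the spindle poles, was at 13.09, 13.16 and 12.81 in KHOS and at 12.06, 11.70 and 11.74 in U-2OS. AURKB, the kinase of the chromosomal passenger complex, was at 10.05, 10.07 and 9.68 in KHOS and at 8.29, 8.19 and 8.27 in U-2OS. For both Aurora kinases CDK11 siRNA alone lay apart in KHOS. PLK4, which starts the duplication of centrioles, was at 9.65, 9.22 and 9.40 in KHOS and at 9.05, 8.73 and 8.85 in U-2OS. This probe set was lowest with nonspecific siRNA in both lines, but the other kept one gave -0.24 between the siRNAs in KHOS.

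PLK1, the main Polo-like kinase of mitosis, had a single probe set, at 5.17, 5.48 and 5.10 in KHOS and at 5.09, 5.09 and 5.07 in U-2OS. It never reached the limit, and no difference is read from it. INCENP, the scaffold of the chromosomal passenger complex, was at 2.67, 3.07 and 2.64 in KHOS and at 2.62, 2.49 and 2.58 in U-2OS, also below the limit throughout. The kept probe sets nearest the limit were 215509_s_at of BUB1, whose highest log2 signal was 6.74, 1555826_at of BIRC5 at 6.96 and 236312_at of MAD2L1 at 7.11. Just outside were 207590_s_at of CENPI at 6.13 and 237245_at of BUB3 at 6.02.

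BIRC5 encodes survivin, the passenger protein that brings AURKB to the centromere. It was at 11.01, 10.58 and 10.06 in KHOS and at 11.72, 11.08 and 11.02 in U-2OS. KHOS thus had 2 steps of like size, while in U-2OS nearly all of the difference was between untransfected and nonspecific siRNA. For CDK11 siRNA against untransfected cells limma gave -0.82 (SE 0.15, adjusted p 0.136; adjusted p 0.0253 with the prior that follows the level). For nonspecific siRNA against untransfected cells it gave -0.53 (adjusted p 0.534). All 4 kept probe sets of BIRC5 were lower on both siRNA arrays than untransfected in both lines. Between the siRNAs in KHOS they ran from -0.51 to -0.03, so the 2 like steps are those of the brightest.

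The 5 spindle checkpoint genes lay between -0.22 and 0.18 in KHOS for CDK11 against nonspecific siRNA and between -0.11 and 0.53 in U-2OS, with TTK the highest in both. MAD2L1, which binds and inhibits CDC20, was at 12.61, 11.92 and 11.86 in KHOS and at 13.23, 12.93 and 12.99 in U-2OS. Its difference of -0.69 in KHOS was the widest of the 40 genes for nonspecific siRNA against untransfected cells in that line, and the siRNA arrays lay 0.059 apart in each line. These are values of its brightest probe set. In KHOS its 3 kept probe sets ran from -0.75 to -0.18 for nonspecific siRNA against untransfected cells. Between the siRNAs they ran from -0.47 to -0.06 there. BUB3, a partner of BUB1 and BUB1B, was at 14.09, 13.82 and 13.59 in KHOS and at 13.22, 12.95 and 12.85 in U-2OS. On this probe set the 3 arrays were in descending order in both lines. Limma gave -0.43 (SE 0.114, adjusted p 0.185) for CDK11 siRNA against untransfected cells, with an adjusted p of 0.0305 under the prior that follows the level. In that comparison the 4 kept probe sets of BUB3 ran from -0.74 to -0.17 in KHOS and from -0.57 to -0.06 in U-2OS. Between the siRNAs in U-2OS they ran from -0.11 to 0.05, so not all were in descending order. BUB1B, the BUBR1 protein, was in descending order in both lines, at 12.01, 11.77 and 11.55 in KHOS and at 10.96, 10.60 and 10.51 in U-2OS. TTK, the MPS1 kinase at the top of the checkpoint, was at 9.96, 9.75 and 9.92 in KHOS and at 9.22, 8.77 and 9.30 in U-2OS. With CDK11 siRNA it was back near its untransfected level in both lines, and its limma estimate between the siRNAs was 0.35 (adjusted p 0.372).

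BUB1, the kinase that recruits checkpoint proteins to kinetochores, depended on the probe set. The brighter one, 209642_at, was at 10.96, 10.82 and 10.75 in KHOS and at 11.31, 11.17 and 11.27 in U-2OS, with no array far from the others. The dim one, 215509_s_at, was at 6.20, 6.25 and 5.93 in KHOS and at 6.57, 4.78 and 6.74 in U-2OS. It differed by -1.79 in U-2OS with nonspecific siRNA against untransfected cells and by 1.96 between the siRNAs, both beyond 3 SD of the kept probe sets. Its level lay below the limit on 5 of the 6 arrays, and the brighter probe set gave -0.14 and 0.10.

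The anaphase genes are CDC20, UBE2C, the ubiquitin-conjugating enzyme of the anaphase-promoting complex, its target securin (PTTG1), and separase (ESPL1), which securin holds inactive. CDC20 was at 12.38, 12.24 and 11.74 in KHOS and at 12.29, 11.86 and 11.79 in U-2OS. The order was descending in both lines, with the wider gap at CDK11 siRNA in KHOS and at nonspecific siRNA in U-2OS. Limma gave -0.57 (SE 0.148, adjusted p 0.185; adjusted p 0.0498 with the prior that follows the level) for CDK11 siRNA against untransfected cells. UBE2C was at 12.69, 12.37 and 12.17 in KHOS and at 11.58, 11.57 and 11.54 in U-2OS. PTTG1 was at 13.14, 13.07 and 12.95 in KHOS and at 12.97, 12.80 and 12.73 in U-2OS. ESPL1 was at 8.33, 8.35 and 7.83 in KHOS and at 7.90, 7.60 and 7.88 in U-2OS. Of the 4 genes CDC20, UBE2C and PTTG1 were lower in both lines with CDK11 than with nonspecific siRNA.

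At the centromere, CENPA, the histone H3 variant that marks it, was at 8.27, 8.08 and 7.59 in KHOS and at 9.23, 8.63 and 8.23 in U-2OS. The arrays were in descending order in both lines. Its difference of -1.003 in U-2OS with CDK11 siRNA against untransfected cells was the single one of the 40 genes beyond 1 log2 unit. Limma gave -0.84 (SE 0.148, adjusted p 0.134; adjusted p 0.0424 with the prior that follows the level) for that comparison and -0.45 (SE 0.148, adjusted p 0.320) between the siRNAs, the only mitotic gene with an unadjusted p under 0.05 there. A further probe set is assigned to both SLC35F6 and CENPA and was not counted. It was at 11.11, 10.96 and 10.31 in KHOS and at 11.78, 11.002 and 11.09 in U-2OS, so that in U-2OS it put the CDK11 siRNA array above the nonspecific one.

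NDC80, NUF2 and SPC25 belong to the complex that grips spindle fibres. NDC80 was at 12.33, 12.03 and 11.85 in KHOS and at 11.96, 11.55 and 11.70 in U-2OS, and NUF2 at 10.85, 10.49 and 10.45 and at 10.58, 10.36 and 10.54. SPC25 was at 10.81, 10.47 and 10.32 in KHOS and at 10.93, 10.48 and 10.91 in U-2OS. All 3 shared the sequence of arrays of their line, lowest with CDK11 siRNA in KHOS and with nonspecific siRNA in U-2OS. CENPE, a kinesin of the kinetochore, was at 10.05, 9.91 and 9.31 in KHOS and at 9.49, 9.12 and 9.49 in U-2OS. CENPF, a large kinetochore protein made in G2, was at 10.69, 10.79 and 10.54 in KHOS and at 10.27, 9.72 and 9.86 in U-2OS. Its other kept probe set gave -0.50 with nonspecific siRNA against untransfected cells in KHOS and -0.90 with CDK11 siRNA. The brightest gave 0.11 and -0.15 there. CENPI, of the inner kinetochore, was at 8.53, 8.31 and 7.82 in KHOS and at 7.58, 7.77 and 8.30 in U-2OS, in descending order in the former and ascending in the latter.

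Among the kinesins, KIF11, also called Eg5, which pushes spindle poles apart, was at 11.21, 11.05 and 10.29 in KHOS and at 9.88, 9.26 and 9.31 in U-2OS. The wide gap was at CDK11 siRNA in KHOS and at nonspecific siRNA in U-2OS. KIF20A, which acts in cytokinesis, was at 10.69, 10.58 and 10.04 in KHOS and at 10.37, 9.62 and 9.54 in U-2OS, the same pattern. For CDK11 siRNA against untransfected cells limma gave -0.75 for KIF11 (SE 0.216, adjusted p 0.203) and -0.74 for KIF20A (SE 0.186, adjusted p 0.181). KIF4A was at 10.04, 9.99 and 9.68 in KHOS and at 10.35, 9.82 and 9.91 in U-2OS. KIF2C, which takes fibres apart at the kinetochore, was at 10.46, 10.56 and 10.19 in KHOS and at 10.64, 10.31 and 10.24 in U-2OS. KIF23 is a motor of the midzone, and KIF18A dampens the movement of chromosomes. KIF23 was at 11.21, 10.85 and 11.09 in KHOS and at 11.29, 11.14 and 11.34 in U-2OS, and KIF18A at 8.72, 8.94 and 8.60 and at 9.02, 8.82 and 8.92. KIF14 was at 10.22, 10.22 and 10.19 in KHOS and at 9.93, 10.06 and 9.96 in U-2OS.

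In the group of the spindle, midzone and cytokinesis, ECT2, which activates the contractile ring, was at 12.64, 12.13 and 12.36 in KHOS and at 11.49, 10.99 and 11.32 in U-2OS. Nonspecific siRNA was the lowest array in both lines. ECT2 gave a limma estimate of -0.51 (SE 0.112, adjusted p 0.518) for nonspecific siRNA against untransfected cells and 0.28 between the siRNAs. TPX2, which activates AURKA on the spindle, was at 11.16, 11.04 and 10.71 in KHOS and at 10.63, 10.23 and 10.29 in U-2OS. PRC1, which bundles midzone fibres, was at 10.91, 10.75 and 10.47 in KHOS and at 10.62, 10.34 and 10.55 in U-2OS. ANLN, a scaffold of the contractile ring, was at 13.56, 13.20 and 13.14 in KHOS and at 13.06, 12.99 and 13.06 in U-2OS. These 3 were lowest with CDK11 siRNA in KHOS and with nonspecific siRNA in U-2OS.

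TOP2A, the topoisomerase that untangles sister chromatids, was at 12.87, 12.47 and 11.92 in KHOS and at 12.34, 11.68 and 11.79 in U-2OS. Like BIRC5 it had, on its brightest probe set, 2 steps of like size in KHOS and a single step, at nonspecific siRNA, in U-2OS. Its other kept probe set had steps of -0.47 and -0.18 in KHOS. Limma gave -0.75 (SE 0.186, adjusted p 0.179; adjusted p 0.0424 with the prior that follows the level) for CDK11 siRNA against untransfected cells and -0.53 (adjusted p 0.584) for nonspecific siRNA against untransfected cells.

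**Figure D3:**
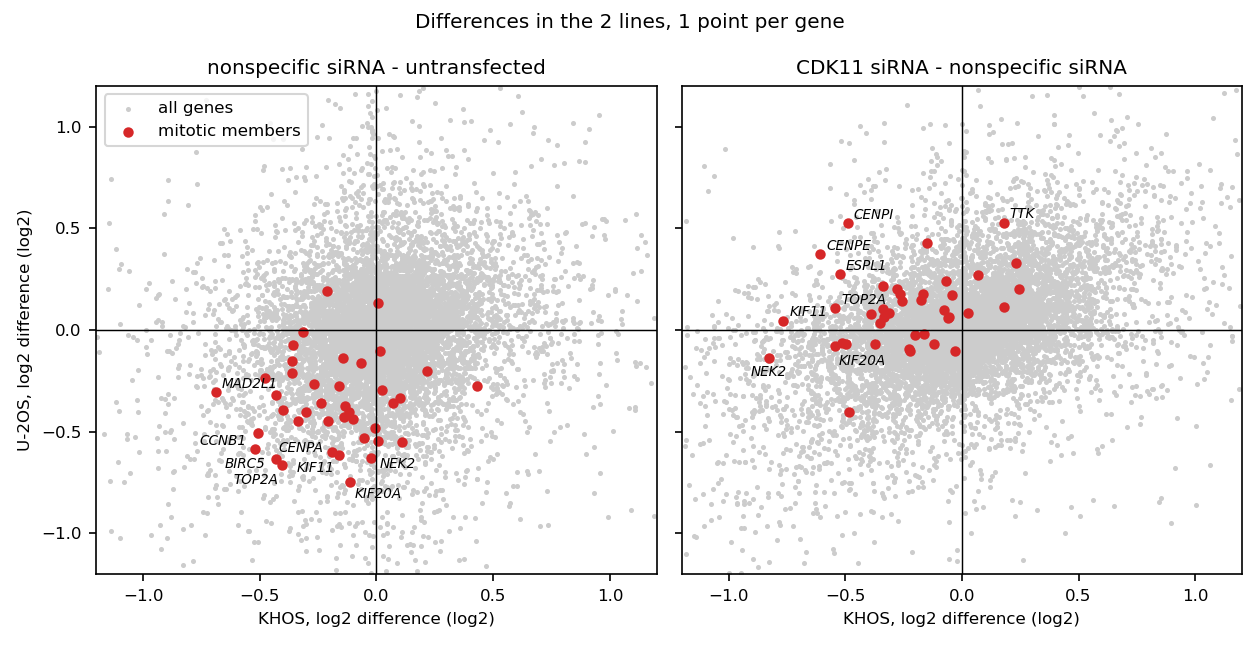
Log2 difference in U-2OS (vertical) against that in KHOS (horizontal), with 40 mitotic genes in red over all 8878 genes in grey. Grey points beyond 1.2 on either axis, 241 genes on the left and 259 on the right, are not drawn. With nonspecific siRNA against untransfected cells 30 mitotic genes lie in the lower left field. Between the siRNAs 34 lie left of 0 and 12 below it, with -0.24 as the median in KHOS. With arrays centred on the housekeeping median the latter is 0.22, where the median of all genes is 0.46.

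Gene by gene, the lines were only loosely related. Over the 40 genes, Pearson's r of the KHOS and U-2OS differences was 0.065 with nonspecific siRNA against untransfected cells, and Spearman's rho was 0.050. Between the siRNAs these were 0.30 and 0.27, and for CDK11 siRNA against untransfected cells 0.28 and 0.30. Over all 8878 genes Pearson's r was 0.17, 0.45 and 0.40. They are descriptions across genes, which are not independent, and each rests on 2 pairs of arrays. Whether the response of the lines differs could not be tested, since a term for it leaves no residual degree of freedom.

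Probe sets of the same gene mostly had the same sign. Of the 16 genes with several kept probe sets, with nonspecific siRNA against untransfected cells 13 had 1 sign in KHOS and 16 in U-2OS. The exceptions in KHOS were BUB1, CENPF and KIF14, with the probe sets of CENPF at -0.50 and 0.11. For CDK11 siRNA against untransfected cells the number was 16 in KHOS and 15 in U-2OS. Between the siRNAs it was 13 in KHOS, the exceptions being CCNA2, CCNB1 and PLK4, with probe sets from -0.24 to 0.18. In U-2OS it was 10, the exceptions being AURKA, BIRC5, BUB3, KIF2C, MAD2L1 and NEK2, with probe sets from -0.31 to 0.26. Beyond 3 SD of all kept probe sets there were 2 of the 62 in U-2OS for nonspecific siRNA against untransfected cells, against 1.59% of all kept probe sets, and 1 between the siRNAs, against 1.87%. Besides the dim probe set of BUB1 this was 228729_at of CCNB1, at 9.57, 8.18 and 8.68 in U-2OS and 11.78, 10.92 and 10.71 in KHOS. It differed by -1.39 in U-2OS where the brighter 214710_s_at of CCNB1 differed by -0.59. In the other 4 comparisons within lines no probe set of the 62 lay beyond 3 SD.

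**Figure D4:**
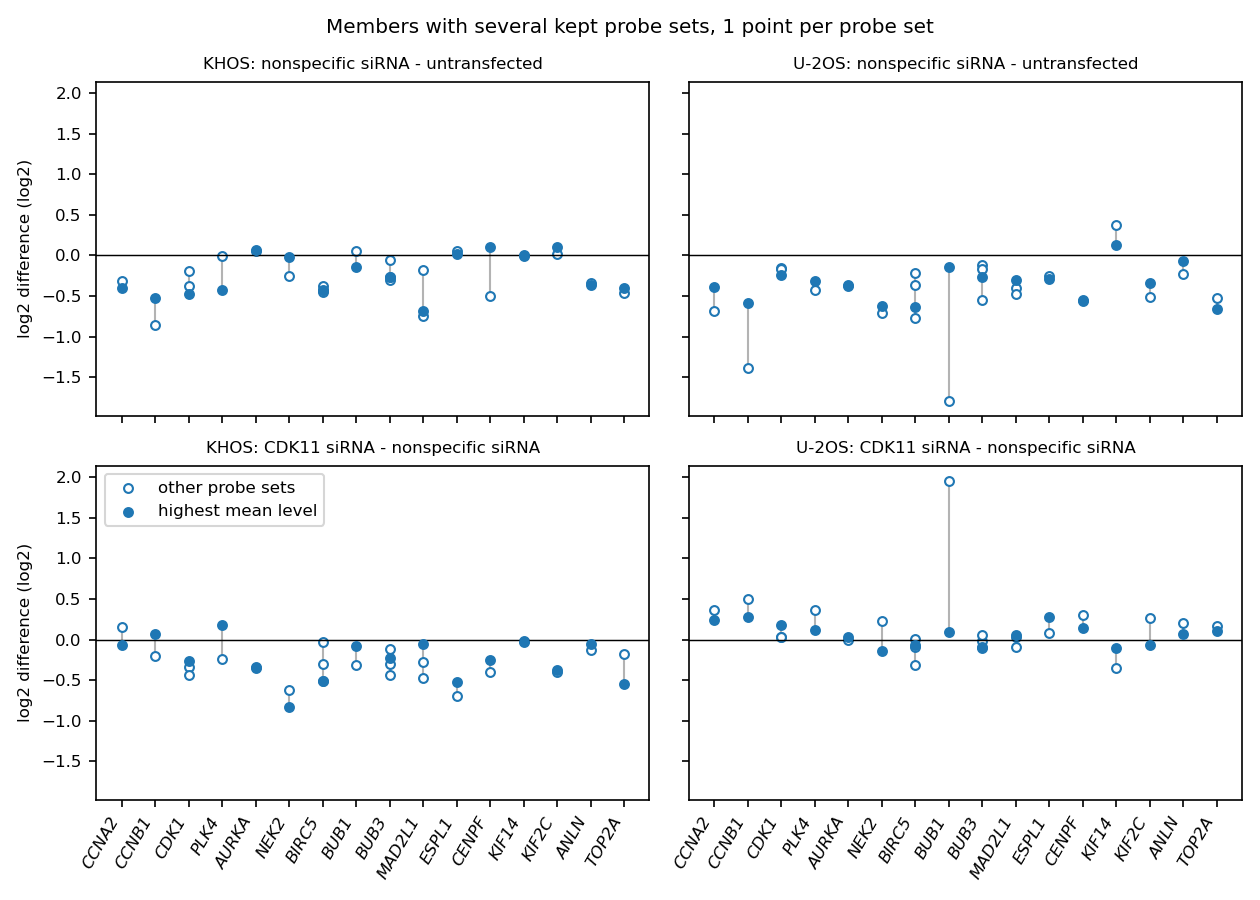
Log2 difference of every kept probe set of the 16 mitotic genes that have several, with 1 array per condition, for nonspecific siRNA against untransfected cells (top) and CDK11 against nonspecific siRNA (bottom). Filled points are the probe sets of highest mean level that represent the gene. The dim BUB1 probe set stands apart in U-2OS, at -1.79 and 1.96, from the brighter one at -0.14 and 0.10.

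A list of 65 other mitotic genes, such as condensin, shugoshin and further kinetochore genes, was set beside them. Its medians were -0.16 in KHOS and -0.25 in U-2OS with nonspecific siRNA against untransfected cells. For CDK11 siRNA against untransfected cells they were -0.43 and -0.17, and between the siRNAs -0.26 and 0.059, with the median of all genes near 0. Centring on the housekeeping median turned the KHOS values to 0.016 and 0.20, where the medians of all genes were 0.45 and 0.46. Centring on the mean gave -0.38 and -0.12, where those of all genes were 0.047 and 0.14. At an unadjusted p under 0.05 limma had 8 lower and 1 higher for nonspecific siRNA against untransfected cells, against 8.46% of all genes. It had 4 lower and 2 higher between the siRNAs, against 13.6%, and 19 lower and 2 higher for CDK11 siRNA against untransfected cells, against 18.3%, with 0 at an adjusted p of 0.05 in each. Lowest on the mean over lines with nonspecific siRNA were LMNB1 (lamin B1) at -0.90, ARHGAP11A at -0.86 and SMC4, of condensin, at -0.45. Highest were CDC25A at 0.44, WEE1, the kinase that restrains CDK1, at 0.27 and MAD1L1, the partner of MAD2L1, at 0.24. Between the siRNAs the lowest were CENPK at -0.94, SGO2, a protector of cohesin, at -0.69 and CENPM at -0.61. MAD1L1 at 0.53, LMNB1 at 0.44 and CENPL at 0.32 were the highest. CDK11 siRNA against untransfected cells gave ARHGAP11A at -1.21, CENPK at -1.07 and SGO2 at -0.94, and MAD1L1 at 0.78, WEE1 at 0.46 and MAD2L1BP at 0.26.

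Genes of the G1/S transition and of DNA replication, which peak earlier in the cycle, are given for comparison. Of 32 listed 31 had a kept probe set. With nonspecific siRNA against untransfected cells their medians were -0.12 in KHOS and -0.30 in U-2OS, near those of the mitotic genes. Between the siRNAs they were -0.47 in KHOS, where all 31 were lower against 49.6% of all genes, and -0.030 in U-2OS. Centred on the housekeeping median the former became -0.012 with 17 lower, against 11.4% of all genes, and centred on the mean -0.33 with 29 lower, against 32.4%. For CDK11 siRNA against untransfected cells they were -0.62 and -0.34. Centred on the housekeeping median the KHOS value became -0.17 with 24 lower, against 14% of all genes. Centred on the mean it was -0.57 with 31 lower, against 43.3%. In that comparison limma had 16 lower and 0 higher at an unadjusted p under 0.05, against 18.3% of all genes, and 0 at an adjusted p of 0.05. The 25 of 29 housekeeping genes with a kept probe set had medians of 0.076 and 0.0025, then -0.079 and -0.026 between the siRNAs, and -0.007 and -0.0005 for CDK11 siRNA against untransfected cells.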

How the data were processed

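RNA was measured on 6 Affymetrix U133 Plus 2.0 arrays, 1 per line and transfection. The authors deposited log2 values for all 54675 probe sets, made with gcrma (background adjustment, quantile normalization and summary of each probe set), whose version is not given in the sources used here. Quantile normalization sets the arrays to a common distribution, so a shift of all genes cannot be seen. The study's present and absent calls were not applied to the table. Genes were named from the platform annotation, updated by gene ID to GRCh38.p14 symbols: 41097 probe sets had 1 symbol, 1801 several and 11777 none. Probe sets over log2 of 100 on at least 1 array were kept, and a gene was represented by its kept probe set of highest mean level. Probe sets ending in x_at, such as those of FOXM1, PTTG1 and CENPA, can hold probes that match other transcripts.

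Differences within a line carry no p-value. Counts used a step of 0.5 log2 units, with 1 log2 unit and 3 SD as alternatives. Across lines limma 3.58.1 in R 4.3.3 was fitted two-sided, with a cell line block, which leaves 2 residual degrees of freedom; p-values were adjusted over 8878 genes (Benjamini-Hochberg). Alternatives covered the probe set of a gene, the filter, the centring and the variance prior. Values on all arrays are given for genes called by limma with either prior, for those with a probe set beyond 3 SD, for the 2 of each role with the largest mean difference and for CCNB1, CDK1, PLK1, AURKA and CDC20; other genes were added afterwards. Of the other mitosis list, the 3 highest and 3 lowest mean differences per comparison are named. The genes and lists were chosen with earlier results of these data known. Tables and plots were made in Python 3.11.15 with pandas 2.3.3 and matplotlib 3.10.9.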

Additional observations from a re-analysis of the deposited data

Results flagged for a closer look

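Some results had opposite signs in KHOS and U-2OS. How far the lines differ was not tested. The median of the 40 mitotic genes for CDK11 siRNA against nonspecific siRNA was -0.24 in KHOS and 0.092 in U-2OS. With arrays centred on the housekeeping median it was 0.22 in KHOS, where the median of all genes was 0.46. In the same comparison ESPL1 (separase) gave -0.52 and 0.28, CENPE -0.61 and 0.37, and CENPI -0.49 and 0.52. CENPI was opposite also for CDK11 siRNA against untransfected cells, with -0.70 in KHOS and 0.72 in U-2OS. CDC25B gave 0.43 in KHOS and -0.27 in U-2OS with nonspecific siRNA against untransfected cells, and 0.27 and -0.29 with CDK11 siRNA against untransfected cells.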

How the results depend on the processing

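With 1 array per line and condition, differences within a line have no error, and having 6 arrays limits the precision. Centring each array on the median of the housekeeping genes moved the mitotic median to -0.61 in U-2OS for nonspecific siRNA against untransfected cells, to 0.22 in KHOS and 0.18 over the lines between the siRNAs, and to 0.0016 in KHOS and -0.42 in U-2OS for CDK11 siRNA against untransfected cells. It shifts all genes of an array alike, by construction. Centring on their mean instead, chosen after seeing the data, gave 0.0086 over the lines between the siRNAs, against -0.079 as deposited, -0.10 in KHOS between them, and -0.40 in KHOS for CDK11 siRNA against untransfected cells. Counts of steps and orders and the other lists were centred both ways, also chosen after seeing the data. Part of those values stand beside them, mostly for KHOS. Leaving out each line in turn gave -0.37 to -0.16 for nonspecific siRNA against untransfected cells, -0.24 to 0.092 between the siRNAs (0.092 without KHOS) and -0.45 to -0.24 for CDK11 siRNA against untransfected cells. With a step of 1 log2 unit in place of 0.5 all counts of mitotic genes became 0 but that of CDK11 siRNA against untransfected cells in U-2OS, where 1 was lower, and with 3 SD all became 0. The limma prior that follows the level called 5 mitotic genes for CDK11 siRNA against untransfected cells in place of 0, and 5, 119 and 279 of all genes in the 3 comparisons in place of 0. Filtering on the mean level called 0, 15 and 35 of all genes, and housekeeping-median centring 53, 96 and 217, with 0 mitotic genes in either. Under that centring the variance prior had infinite degrees of freedom, against 2.74 in the main fit, so all genes were given the same variance. The cause of the calls was not tested. Adjusted p-values of the 18 limma results named ran from 0.0253 to 1 over the alternatives. The cell line block pairs the 3 arrays of a line in the limma fit, and with the main prior 0 genes were called with or without it. Without it 26, 68 and 89 of all genes had an unadjusted p under 0.05 in the 3 comparisons, in place of 751, 1205 and 1625. Of the alternative values of mitotic medians, limma calls and step counts, 112 were the same as the main ones, 18 moved and 5 changed sign. Part of the 112 were fixed in advance or repeat the main value, so the tally is no measure of stability. A count of 0 at the step of 0.5 stays 0 at a larger step. Filtering on the mean level left the mitotic medians within lines unchanged, and leaving out 1 line gives the value of the other. A median was the same if it kept its sign and stayed within the spread between the lines. A count was the same if it was equal or within a set ratio.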
